A study of Ovis aries with 17 samples.

Results

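The comparison described here sets B lymphocytes (B) of the sheep spleen against macrophages (MP) of the same organ, and comprised 7 of the 17 arrays of the series. B replicates 1, 2 and 3 were paired with MP replicates 1, 2 and 3, because arrays with the same replicate number had been hybridised on the same slide, and B replicate 4, on slide 4 with no MP array, served as a check outside the paired fit. The study matched sheep leukocyte subsets with those of other species, and this comparison gives the contrast between its B cell reference and its CD14-sorted spleen cells. The paper describes its sheep, under blood collection, as female Prealpe sheep, with no separate entry for the spleen donors. Their ages were not given in the sources used here. Per the methods of the paper, B were sorted from spleen cells with an antibody to ruminant B cells and MP with an antibody to CD14. Nothing else was used to gate them as far as these sources say, so that both groups may hold other cells, and a high level of CD14 in MP was selected for. Sorts that yielded under 25 ng of RNA were combined across animals, on arrays that are not named. An array is therefore not always 1 animal, and it is not stated whether B and MP of one number came from the same animals. The p-values of the paired fit measure the spread of the within-slide differences of these arrays, without the variation that a slide shares, and not a spread between animals.

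B lymphocytes recognise antigen through surface immunoglobulin, bind complement-coated antigen through complement receptor 2 (CR2) and proliferate in the follicles of the spleen. Macrophages engulf particles, sense bacterial products through CD14 and Toll-like receptors, and release cytokines and prostaglandins. PTGS2 encodes the inducible enzyme of prostaglandin synthesis, and ACVRL1 a receptor of the bone morphogenetic protein (BMP) family, which is best known from blood vessels.

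The probes behind the main genes are 60 bases long and were read from the array design. The first 30 bases of each are given, 5′ to 3′ in lower case, because they fix what was measured, and because 2 pairs among them bear on the results. CD14 had probes that shared no run over 5 bases. The probe assigned to PTGS2 by its accession and the probe that the files name PGHS2, an older name of the same gene, were identical over all 60 bases.
CR2: ggcgtcaagttgcaattctgaagctttcac
CD3D: tctttagtacccatttccctgtatagaagg
CD14, probe A_70_P059676: tgtttttagccttgaccactttaaatctca
CD14, probe BL_OTH_F001367: aatgtcctgactctggacggaaatcccttt
PTGS2: ctgaatctgggaatttggaatatgtgtgtt
PGHS2: ctgaatctgggaatttggaatatgtgtgtt
ACVRL1: aaagttctttgaatatcaccctgtgtcaga
LYZ: tggagaagtcattgtcaaaaccaagatctc
CXCL8: cttgcccttattatgcaatgatgtgttgaa
The genome position of these probes is not given in the files used here.

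Levels are log2 values relative to the 75th percentile of the spots of an array, so that 0 is a signal equal to that percentile, and differences are B minus MP on the same scale. They were tested with limma, with the slide as a block, and a gene was called at an adjusted p under 0.05 and a difference of at least 1. Of 10139 genes tested, 3130 (30.9%) were called, 1685 (16.6%) higher in B and 1445 (14.3%) higher in MP, and all 3130 had the same sign in the 3 pairs. The B and MP arrays did not overlap for 4699 genes (46.3%), 26.1% with B above MP and 20.2% with MP above B, and 28.4% of genes were both called and without overlap. An adjusted p under 0.05 without a limit on size was reached by 40.3%. The median difference of all genes was 0.14. Only 213 of the tested genes had a symbol, and of these 39 were called higher in B and 63 higher in MP (47.9% in all). The 75th percentile of the 6 arrays ranged from 194 to 491 in scanner units, and 61.1% (MP replicate 1) to 76.8% (B replicate 1) of the spots were well above background. Across the genes tested, which are not independent of each other, B arrays correlated with each other at r = 0.910 to 0.963, MP arrays at 0.947 to 0.961, and arrays of opposite groups at 0.731 to 0.841.

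**Figure D1:**
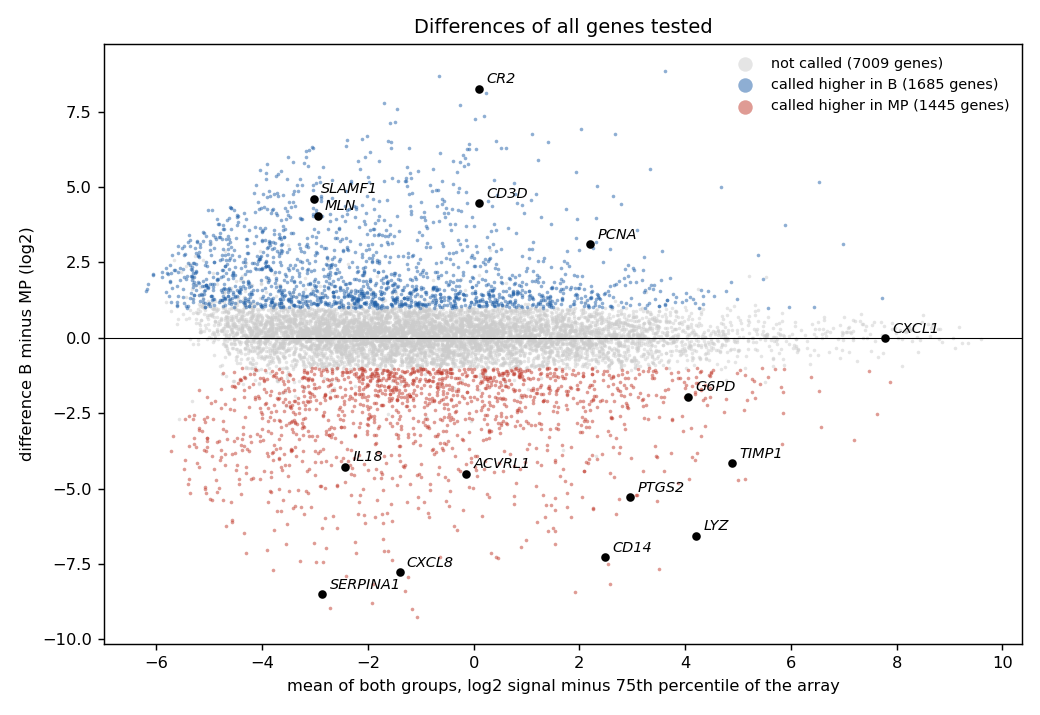
Difference between B and MP (log2, vertical axis) against the mean level of both groups (log2 relative to the 75th percentile of the array, horizontal axis) for the 10139 genes tested, with 1685 called higher in B in blue, 1445 called higher in MP in red and the others in grey. CR2 lies at 8.26 at the upper edge, CD14 at -7.27 toward the lower edge, and CXCL1 at -0.02 near the line of no difference.

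CR2 was the gene with a symbol that was highest in B relative to MP. Its level was 4.22, 4.23 and 4.25 on B replicates 1 to 3 and 4.20 on B replicate 4, against -6.17, -4.65 and -1.26 on the MP arrays. The B arrays lay within 0.05 of each other and far above every MP array, while the MP arrays spread widely, and CR2 was well above background on only 1 of them, replicate 3. The difference was 8.26 ± 0.95 (SE, n = 3 pairs, limma adjusted p = 0.00438), and it ranged from 5.51 in pair 3 to 10.38 in pair 1. With the MP arrays on which CR2 was not well above background set at the lowest signal that counted as such, the difference was 7.62. CR2 was the single member with a symbol here among the 35 B cell markers listed, so that the B cell label could be checked against this gene alone, and MS4A1 and the immunoglobulin genes were not analysed here.

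CD14, a co-receptor for bacterial lipopolysaccharide, was at -0.80, -1.52 and -1.14 on B replicates 1 to 3, at -1.19 on B replicate 4 and at 5.29, 6.84 and 6.23 on the MP arrays. The groups did not overlap, and the difference was -7.27 ± 0.46 (SE, n = 3 pairs, limma adjusted p = 0.00171), or 155-fold, in the direction that the sort selected for. The second CD14 probe gave a difference of -4.99, with no overlap either, so that the size but not the direction depended on the probe.

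**Figure D2:**
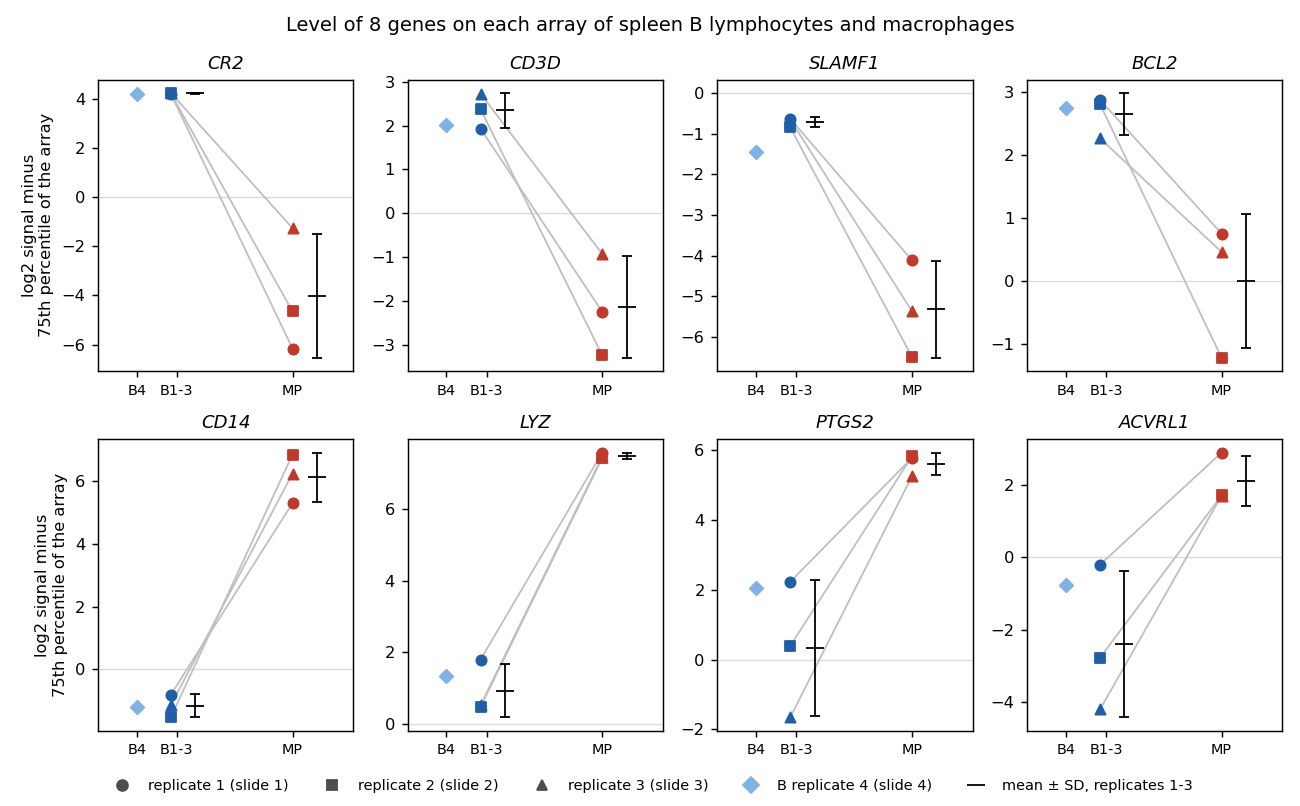
Level of 8 genes (log2 relative to the 75th percentile of the array) on each array, with B in blue, MP in red, pairs of one slide joined by grey lines and B replicate 4 as a light diamond. Black marks give the mean ± SD of replicates 1 to 3. The B arrays coincide for CR2 and spread from -1.65 to 2.23 for PTGS2 and from -4.21 to -0.20 for ACVRL1, while MP lies above every B array for CD14, LYZ, PTGS2 and ACVRL1.

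PTGS2 was at 2.23, 0.40 and -1.65 on B replicates 1 to 3, at 2.04 on B replicate 4 and at 5.77, 5.81 and 5.25 on the MP arrays. The MP arrays were close to each other and all above the B arrays, among which replicates 1 and 4 were high and replicate 3 low. The difference was -5.28 ± 0.65 (SE, n = 3 pairs, limma adjusted p = 0.00512), or 39.0-fold. The identical probe named PGHS2 differed from it by 0.06 to 0.28 on any of the 7 arrays and gave -5.20, which is the same measurement repeated on other spots and no independent evidence. ACVRL1 was at -0.20, -2.78 and -4.21 on B replicates 1 to 3, at -0.76 on B replicate 4 and at 2.91, 1.72 and 1.71 on the MP arrays. Its order among the B arrays was that of PTGS2, and the groups did not overlap. The difference was -4.51 ± 0.55 (SE, n = 3 pairs, limma adjusted p = 0.00507), or 22.8-fold, and lay between -3.11 in pair 1 and -5.93 in pair 3.

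The 7 members of the monocyte and macrophage list that passed the filter were called higher in MP, with a median difference of -5.28 beside 0.14 for all genes and a background of 14.3% called higher in MP. These were CD14, PTGS2, LYZ, SLC11A1, CSF1R, TIMP1 and ITGAM. CSF1R and ITGAM passed the filter through the MP arrays alone, and the 5 members well above background on all 6 arrays were called higher in MP. LYZ, the antibacterial enzyme lysozyme, was at 1.80, 0.48 and 0.52 on B replicates 1 to 3 and 7.58, 7.42 and 7.46 on the MP arrays with little spread among the MP arrays, and differed by -6.56 ± 0.30 (SE, n = 3 pairs, limma adjusted p = 0.0014). SLC11A1, which pumps metal ions out of the phagosome, was at 2.20, 0.29 and -0.22 in B and 5.61, 6.45 and 6.44 in MP and differed by -5.41 ± 0.68 (SE, n = 3 pairs, limma adjusted p = 0.00531). CSF1R, the receptor for the growth factor that macrophages depend on, was at -3.81, -5.90 and -6.31 in B, where it was well above background on 1 of 3 arrays, and at -0.71, -0.51 and -0.07 in MP. Its difference was -4.91 ± 0.63 (SE, n = 3 pairs, limma adjusted p = 0.0056). TIMP1, an inhibitor of matrix metalloproteinases, differed by -4.17 (adjusted p = 0.00146), and ITGAM, the alpha chain of complement receptor 3, by -3.0 (adjusted p = 0.00928). The other member on the array, SIRPA, was not well above background on any of the 6 arrays and was not tested.

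The macrophage genes were not evenly low in the B arrays. The summed signal of the 8 list members on the array, in units of each array's 75th percentile, was 23.6 on B replicate 1, 11.2 on replicate 2, 8.05 on replicate 3 and 18.5 on replicate 4, against 471 to 565 on the MP arrays. CSF1R, SLC11A1, PTGS2, LYZ, TIMP1 and ITGAM were each highest on B replicates 1 and 4, as was ACVRL1, which is not on the list. CD14 was not, at -1.14 on B replicate 3 and -1.19 on B replicate 4, and its second probe was highest on B replicate 3, at -1.86. IL18 and CXCL8, also called higher in MP, were lowest on B replicate 1, at -5.20 and -5.88. PTGS1, which was not called, was highest on B replicates 1 and 4, at 4.38 and 3.94. The 3 pair differences of CSF1R, SLC11A1, PTGS2 and ACVRL1 were smallest in pair 1, at -3.10, -3.41, -3.54 and -3.11. Whether this signal came from other cells in the B sort was not tested, and in sorted bulk RNA fewer cells of a type and less RNA per cell cannot be told apart.

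The T cell genes that passed the filter were higher in B than in MP. The 4 members of the T cell list that passed it were called higher in B, where 16.6% of all genes were, with a median of 2.48. CD247 and IL2RA passed through the B arrays alone, and 2 members were called higher in B where all 6 arrays had to be above background. CD3D, a chain of the T cell receptor complex, was at 1.93, 2.37 and 2.72 on B replicates 1 to 3, at 2.0 on B replicate 4 and at -2.23, -3.22 and -0.92 on the MP arrays. All 4 B arrays lay well above all MP arrays, and the difference was 4.47 ± 0.41 (SE, n = 3 pairs, limma adjusted p = 0.0027). CD247, another chain of that complex, differed by 2.42 (adjusted p = 0.0111), CD3E by 1.24 (adjusted p = 0.0318) and IL2RA, the interleukin-2 receptor alpha chain, by 2.54 (adjusted p = 0.0239). CD3E was no longer called without the slide block (adjusted p = 0.0742), at 1.11 (adjusted p = 0.12) without replicate 1 and at 0.98 (adjusted p = 0.109) without replicate 2, and IL2RA at 2.97 (adjusted p = 0.0657) without replicate 3 and at 2.64 (adjusted p = 0.0529) with quantile normalization. Of the T cell genes that did not pass the filter, CD28 and CD40LG were well above background on none of the 4 B arrays and CTLA4 only on B replicates 1 and 4, whereas CD28 and CTLA4 were each above it on 1 MP array. With no filter on dim probes the differences of these 3 genes had the opposite sign, at -1.14 for CD28 (adjusted p = 0.217), -0.65 for CTLA4 (adjusted p = 0.184) and -0.21 for CD40LG (adjusted p = 0.708), and 2 of the 7 T cell genes, CD3D and CD247, were called. The summed signal of the 7 T cell genes on the array was 7.32 to 9.69 on the 4 B arrays and 0.851 to 2.61 on the MP arrays, most of it CD3D and CD3E. How much of the signal called higher in B came from T cells was not tested.

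**Figure D3:**
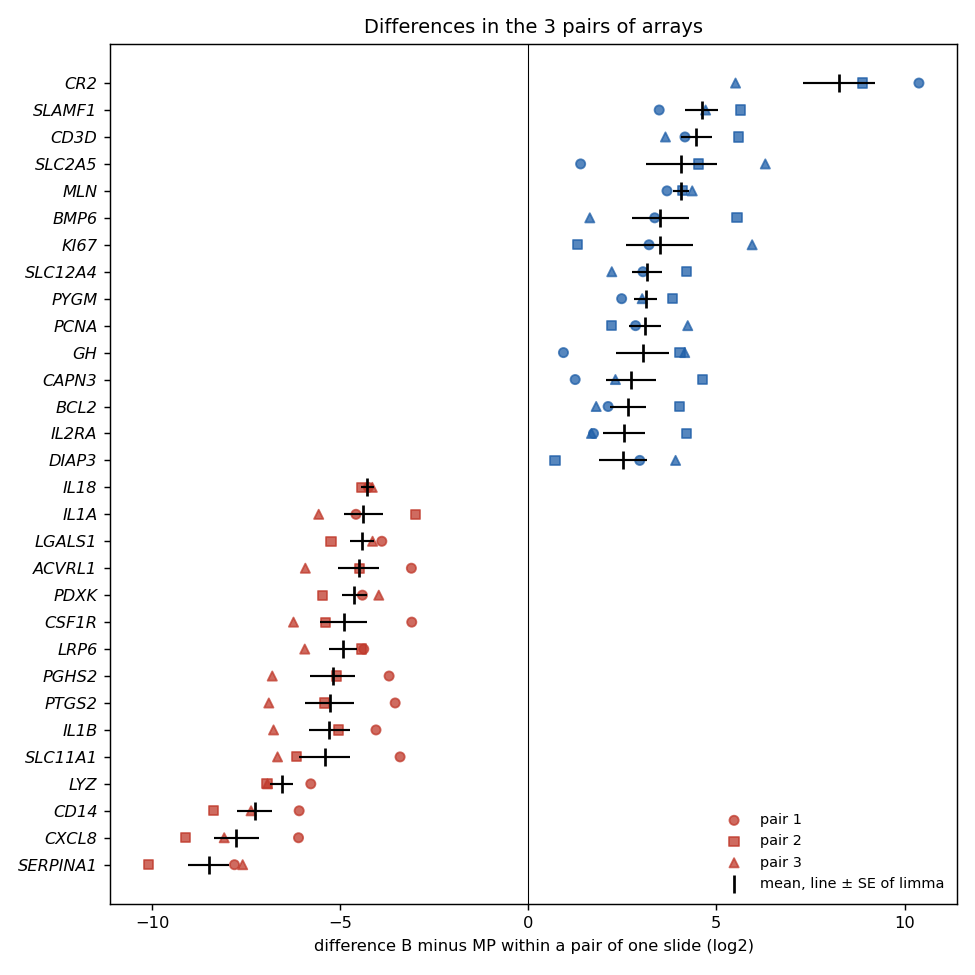
Difference B minus MP (log2) within each of the 3 pairs for the 15 genes with a symbol called highest in B (blue) and the 15 called highest in MP (red), with the mean and its SE from limma in black. No point crosses 0. SLAMF1, MLN, SLC12A4, GH, SERPINA1 and IL1A were not well above background in the lower group, so that their points are no measured differences. IL18 has nearly the same value in all 3 pairs, while SLC2A5 ranges from 1.39 to 6.30 and CR2 from 5.51 to 10.38.

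Several further genes with a symbol were among the highest in B. SLAMF1, a self-binding receptor of lymphocytes, was at -0.63, -0.85 and -0.65 on B replicates 1 to 3 and was not well above background on any MP array, so that it was at least 16.5-fold higher in B (limma adjusted p = 0.00287). BCL2, which protects lymphocytes from cell death, was at 2.87, 2.81 and 2.26 in B and 0.75, -1.21 and 0.46 in MP, with no overlap, and differed by 2.65 ± 0.48 (SE, n = 3 pairs, limma adjusted p = 0.0136). PCNA, the clamp of the replication fork and the single tested member of the proliferation list, was at 3.02, 3.43 and 4.82 on B replicates 1 to 3, at 2.36 on B replicate 4 and at 0.17, 1.22 and 0.58 in MP. B replicate 3 was the highest B array and the groups did not overlap, with a difference of 3.1 ± 0.42 (SE, n = 3 pairs, limma adjusted p = 0.0064). KI67, the file's name for the proliferation antigen, was likewise highest on B replicate 3 (-2.49, -2.20 and -0.43 in B, -5.70, -3.52 and -6.38 in MP) and differed by 3.49 ± 0.89 (SE, n = 3 pairs, limma adjusted p = 0.0344). KI67 was well above background on 1 of 3 MP arrays, and with the others at the background limit the difference was 2.71. It was not called at 3.63 (adjusted p = 0.0938) without replicate 1 or at 2.26 (adjusted p = 0.0692) without replicate 3. DIAP3, which the files also name in this form, differed by 2.53 (adjusted p = 0.0339), with 0.0612 without the block, and was not called at 2.31 (adjusted p = 0.117) without replicate 1 or at 1.83 (adjusted p = 0.131) without replicate 3.

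PYGM, the muscle form of glycogen phosphorylase, was at -0.55, -0.18 and -1.03 in B and -3.03, -4.03 and -4.06 in MP and differed by 3.12 ± 0.31 (SE, n = 3 pairs, limma adjusted p = 0.00311), without overlap. SLC12A4, a potassium-chloride cotransporter, was not well above background on any MP array and was at least 4.8-fold higher in B (adjusted p = 0.00567). MLN, which encodes the gut hormone motilin, was at -0.91, -0.88 and -0.99 on B replicates 1 to 3 and not well above background in MP, at least 14.6-fold higher in B (adjusted p = 0.00146). The GH probe, named for growth hormone, was also below that limit on all MP arrays and was at least 1.84-fold higher in B (adjusted p = 0.0267). This bound, 0.88 (log2), is under the difference of 1 used for a call. CAPN3, a calpain protease, was at 1.57, 3.47 and 1.77 in B and 0.33, -1.15 and -0.55 in MP and differed by 2.73 (adjusted p = 0.0311). SLC2A5, a fructose transporter, was at -4.81, -2.06 and 1.80 on B replicates 1 to 3 and -5.14 on B replicate 4, against -6.20, -6.58 and -4.50 in MP. Only B replicates 2 and 3 lay above all MP arrays, and the difference of 4.07 (adjusted p = 0.0269) had an adjusted p of 0.1 without the block, and was 3.85 (adjusted p = 0.0581) without replicate 2 and 2.95 (adjusted p = 0.0973) without replicate 3. GH was 2.55 (adjusted p = 0.0638) without replicate 2 and 2.48 (adjusted p = 0.129) without replicate 3, and CAPN3 was 2.94 (adjusted p = 0.112) without replicate 3.

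Of 12 tested genes of the inflammatory list, 9 were called higher in MP and none in B, where 14.3% and 16.6% of all genes were, with a median difference of -2.88. CXCL8, IL15 and IL1A passed the filter through the MP arrays alone, and 6 members were called higher in MP where all 6 arrays had to be above background. CXCL8, the chemokine that attracts neutrophils, was at -5.88, -5.33 and -4.64 in B, where it was well above background on 1 of 3 arrays, and at 0.23, 3.77 and 3.44 in MP, where replicate 1 was lowest. The groups did not overlap, and the difference was -7.77 ± 0.60 (SE, n = 3 pairs, limma adjusted p = 0.00208). IL1B, a cytokine released by activated macrophages, was at -2.69, -4.26 and -4.13 in B and 1.35, 0.80 and 2.64 in MP, and differed by -5.29 ± 0.54 (SE, n = 3 pairs, limma adjusted p = 0.00338). IL1A, its close relative, was not well above background on B replicates 1 to 3 and was at least 10.4-fold higher in MP (adjusted p = 0.00453), although it was well above background on B replicate 4, at -3.99. IL18, of the same cytokine family, was at -5.20, -4.56 and -3.96 in B and -0.94, -0.12 and 0.19 in MP, with nearly equal differences in the 3 pairs (-4.25, -4.44 and -4.15) and a mean of -4.28 ± 0.18 (SE, n = 3 pairs, limma adjusted p = 0.0014).

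The other called members were CXCL10, an interferon-induced chemokine (-2.94, adjusted p = 0.00228), IL10, which restrains inflammation (-2.81, adjusted p = 0.00505), IL15, a growth factor of lymphocytes (-2.56, adjusted p = 0.0229) and ICAM1, an adhesion molecule (-1.57, adjusted p = 0.00866), beside PTGS2. IL15 was -1.83 (adjusted p = 0.0572) without replicate 3, and ICAM1 had an adjusted p of 0.0538 without the block. The other 3 inflammatory genes were not called: TNF at 0.40 (adjusted p = 0.33), PTGS1, the constitutive counterpart of PTGS2, at 0.45 (adjusted p = 0.194) and CXCL1, a neutrophil chemokine, at -0.02 (adjusted p = 0.935). CXCL1 was at 8.29, 7.45 and 7.56 in B and 8.18, 7.58 and 7.60 in MP, with overlap between the groups. IL6 did not pass the filter: it was at -3.23, -5.24 and -3.36 on B replicates 1 to 3 and -2.89 on B replicate 4, well above background on B replicates 1, 3 and 4, and on no MP array. With no filter on dim probes IL6 differed by 2.77 (adjusted p = 0.0358), opposite to the called members. TLR2, a receptor for bacterial lipoproteins, was higher in MP, at 0.36, 1.11 and 1.42 against -1.39, -2.06 and -1.74 in B, a difference of -2.69 ± 0.35 (SE, n = 3 pairs, limma adjusted p = 0.00572).

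Among the 11 tested genes of the TGF-beta, activin and BMP pathway, 5 were called higher in MP and 1 higher in B, beside 14.3% and 16.6% of all genes, with a median of -0.54. BMPR2, INHBA and BMP6 passed the filter only through the group in which they were high, and where all 6 arrays had to be above background 3 members were called higher in MP and 0 in B. Beside ACVRL1, ACVR1, another type I receptor, was at -1.88, -2.11 and -2.46 in B and 0.42, 0.80 and 0.71 in MP, with no overlap, and differed by -2.79 ± 0.24 (SE, n = 3 pairs, limma adjusted p = 0.00237). BMPR2, the type II receptor that pairs with both, was at -5.39, -6.25 and -7.76 in B, well above background on 1 of 3 arrays, and at -3.97, -3.74 and -3.37 in MP, and differed by -2.78 ± 0.59 (SE, n = 3 pairs, limma adjusted p = 0.0208). Of the ligands, INHBA, the subunit of activin A, was higher in MP, with a difference of -2.72 (adjusted p = 0.00279; second probe -3.63), as was GDF9, known from the oocyte, with -1.34 (adjusted p = 0.032). BMP6, a ligand that also regulates iron balance, was higher in B, at -2.91, -1.31 and -2.50 against -6.26, -6.86 and -4.13, by 3.51 ± 0.75 (SE, n = 3 pairs, limma adjusted p = 0.0215). BMP6 was well above background on 1 of 3 MP arrays, and with the others at the background limit the difference was 2.15. The mediators SMAD4 (-0.54, adjusted p = 0.0772) and SMAD5 (-0.49, adjusted p = 0.0905) were not called, nor were BMPR1B, BMP7 and AMH, which lay between 0.04 and 0.62. GDF9 had an adjusted p of 0.0832 without the block and was -0.93 (adjusted p = 0.0857) without replicate 1 and -1.41 (adjusted p = 0.0702) without replicate 2, and BMP6 was 3.59 (adjusted p = 0.0691) without replicate 1. With normexp background correction BMP6, BMPR2, INHBA and GDF9 were not called. A further 14 genes of the pathway, TGFB1 and the receptors ACVR1B, ACVR2A, ACVR2B and BMPR1A among them, were too dim to be tested.

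**Figure D4:**
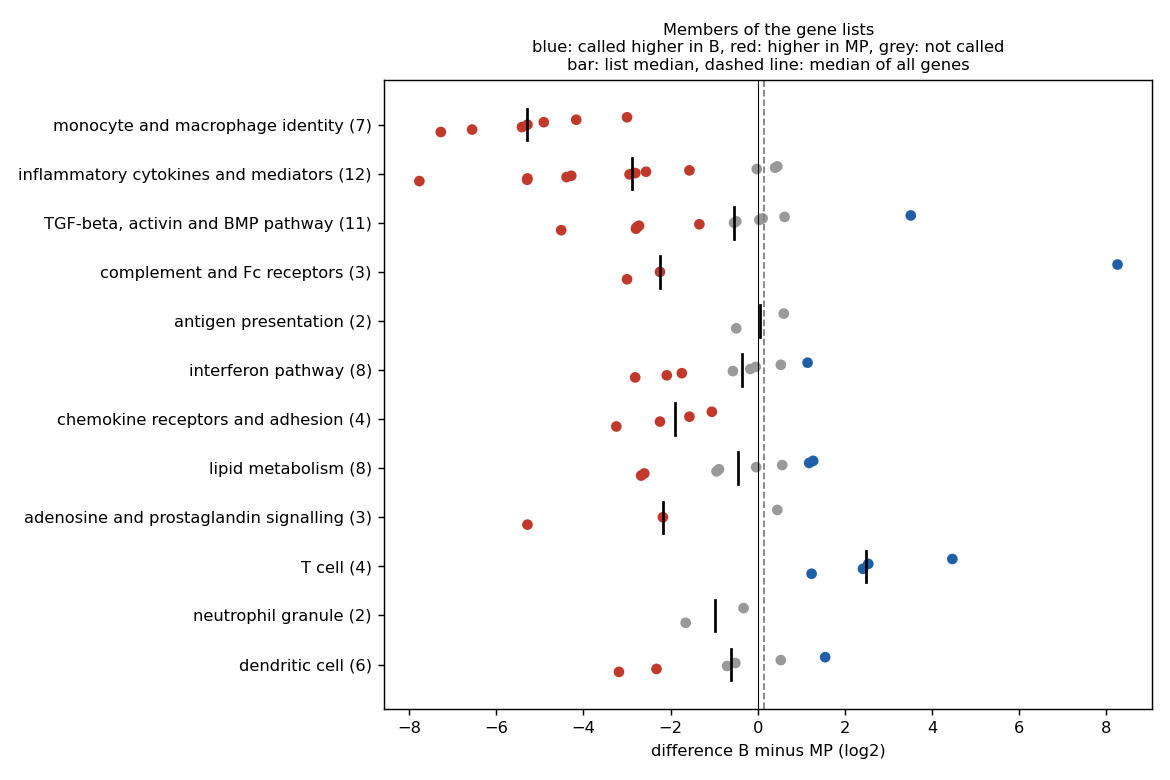
Difference B minus MP (log2) of each tested member of the gene lists with at least 2 tested members, with the number of members in brackets and without the reference genes. Blue points were called higher in B, red points higher in MP and grey points not called, bars are list medians and the dashed line is the median of all genes, 0.14. The 7 macrophage genes all lie at -3.0 or lower and the 4 T cell genes at 1.24 or higher.

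Genes induced by interferon varied between slides within each group. MX1, an antiviral protein, was at 4.62, 3.90 and 3.14 in B and 4.06, 2.18 and 1.97 in MP, MX2 at 3.80, 0.02 and -0.93 and 5.09, 1.67 and 2.39, and ISG15, a ubiquitin-like protein, at 3.50, -0.35 and -1.40 and 4.40, 1.33 and 1.24. In both groups the array of slide 1 was the highest for all 3 genes, and the groups overlapped. B replicate 4 was close to B replicate 1, at 4.42, 3.25 and 3.46. Within the pairs the differences kept their sign: MX1 was higher in B by 1.14 ± 0.28 (SE, n = 3 pairs, limma adjusted p = 0.0299), MX2 higher in MP, with a difference of -2.09 ± 0.44 (SE, n = 3 pairs, limma adjusted p = 0.0206) and ISG15 higher in MP, with a difference of -1.74 ± 0.37 (SE, n = 3 pairs, limma adjusted p = 0.0207). Without the slide block none of them was called, with adjusted p of 0.239, 0.319 and 0.419, nor with all 17 arrays and slide as a block, with adjusted p of 0.178, 0.15 and 0.240. MX1 was 0.86 (adjusted p = 0.108) without replicate 2 and 1.13 (adjusted p = 0.115) without replicate 3, and ISG15 was -1.29 (adjusted p = 0.0587) without replicate 3. IRF1, a transcription factor induced by interferon, did not overlap, at 0.36, -1.20 and -1.85 in B and 2.17, 1.72 and 1.86 in MP, and was higher in MP, with a difference of -2.81 ± 0.40 (SE, n = 3 pairs, limma adjusted p = 0.00689). Of the 8 interferon pathway genes tested, 3 were called higher in MP and 1 in B, beside 14.3% and 16.6% of all genes, and the other 4 (IFNAR1, IFNAR2, IRF2 and IRF8) were not called and lay between -0.57 and 0.53, with a list median of -0.37.

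**Figure D5:**
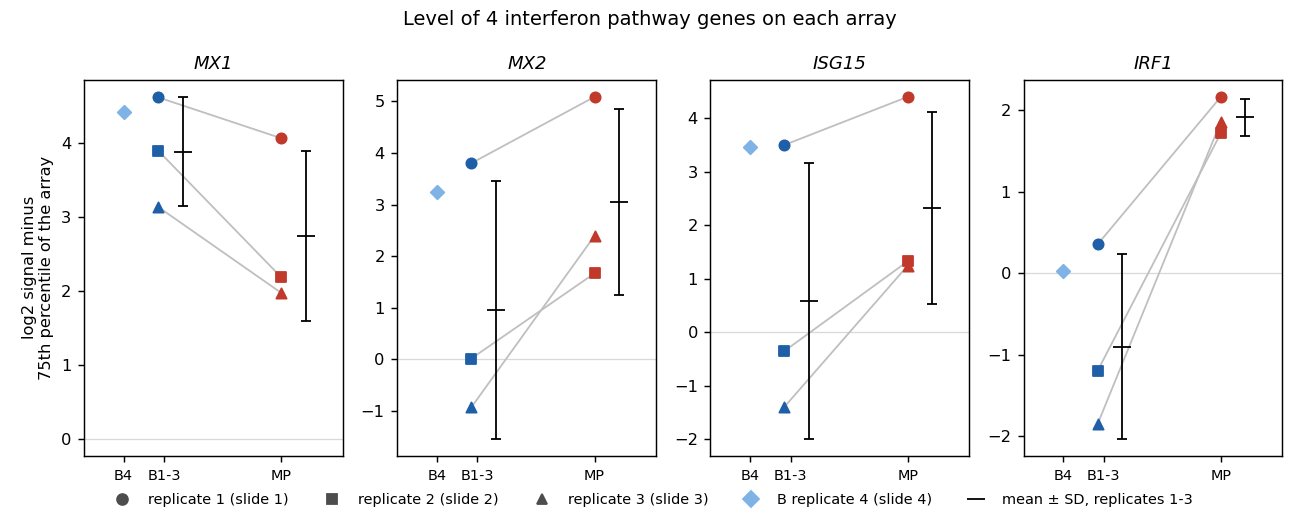
Level of MX1, MX2, ISG15 and IRF1 (log2 relative to the 75th percentile of the array) on each array, drawn as in the plot of 8 genes. The circles of slide 1 lie highest in both groups for all 4 genes, and the lines of the 3 pairs run down for MX1 and up for MX2, ISG15 and IRF1.

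The 4 adhesion genes that passed the filter were called higher in MP, where 14.3% of all genes were, with a median of -1.91. SELP passed through the MP arrays alone, and the 2 members that did not pass, SELE and CCR9, differed without the filter by -0.89 (adjusted p = 0.147) and 0.38 (adjusted p = 0.361). The B and MP arrays overlapped for ICAM1 and ITGAL, and only 2 of the 4 were called without the block, with all 17 arrays and slide as a block, or with normexp background correction. ITGB2, the beta chain shared by leukocyte integrins, was at 3.58, 3.39 and 2.92 in B and 5.57, 5.57 and 5.47 in MP and differed by -2.24 ± 0.20 (SE, n = 3 pairs, limma adjusted p = 0.00258). SELP, the selectin of platelets and endothelium, was not well above background on B replicates 1 to 3 and was at least 3.05-fold higher in MP (adjusted p = 0.00173). It is also the single platelet marker with a symbol, and was well above background on B replicate 4. ITGAL, an integrin chain of lymphocytes, differed by -1.05 (adjusted p = 0.0462), with 0.0878 without the block, and was -0.75 (adjusted p = 0.159) without replicate 1 and -1.01 (adjusted p = 0.16) without replicate 3.

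Of 6 tested dendritic cell genes, FLT3 and BATF3 were higher in MP and TCF4 higher in B, beside 14.3% and 16.6% of all genes, with a list median of -0.61. FLT3, a growth factor receptor of dendritic cells and their precursors, was at -4.95, -4.0 and -4.20 in B and -1.71, -0.88 and -1.0 in MP, with pair differences of -3.24, -3.11 and -3.20 and a mean of -3.19 ± 0.17 (SE, n = 3 pairs, limma adjusted p = 0.00146). BATF3, a transcription factor of cross-presenting dendritic cells, differed by -2.32 (adjusted p = 0.0051). TCF4, a transcription factor of B cells and plasmacytoid dendritic cells, was at 1.09, 0.75 and 0.55 in B and -0.56, -1.02 and -0.67 in MP and differed by 1.55 ± 0.20 (SE, n = 3 pairs, limma adjusted p = 0.00577), but was not called with all 17 arrays, with adjusted p of 0.152 with slide as a block and 0.0995 without. XCR1 (-0.51, adjusted p = 0.283), CADM1 (-0.70, adjusted p = 0.0795) and IRF8 (0.53, adjusted p = 0.095) were not called, and CLEC9A was below the background limit on all of them. The co-stimulatory genes CD80 (0.60, adjusted p = 0.0727) and CD86 (-0.49, adjusted p = 0.0919), the 2 antigen presentation genes measured, were not called either.

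Among the remaining genes highest in MP, SERPINA1, the protease inhibitor alpha-1-antitrypsin, was detected in MP only. It was at 0.38, 2.58 and 1.21 on the MP arrays and not well above background on any B array, so that it was at least 134-fold higher in MP (limma adjusted p = 0.00173). PDXK, the kinase that makes active vitamin B6, was at 0.76, -0.61 and 0.87 in B and 5.17, 4.86 and 4.84 in MP and differed by -4.62 ± 0.34 (SE, n = 3 pairs, limma adjusted p = 0.00193). LGALS1, the sugar-binding protein galectin-1, was at 1.52, 0.44 and 1.02 and 5.42, 5.69 and 5.16 and differed by -4.43 ± 0.32 (SE, n = 3 pairs, limma adjusted p = 0.00192). LRP6, a Wnt co-receptor, was at -5.34, -5.76 and -4.99 in B and -0.96, -1.33 and 0.95 in MP and differed by -4.92 ± 0.37 (SE, n = 3 pairs, limma adjusted p = 0.00205). The groups did not overlap for any of these 4 genes.

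Of 8 tested genes of lipid metabolism, 2 were called in each direction, beside 14.3% of all genes higher in MP and 16.6% higher in B. SCD passed the filter through the B arrays alone, 1 member was called higher in B where all 6 arrays had to be above background, and 0 were with normexp, with B replicate 4 added or from the series table of the authors. ABHD5, an activator of triglyceride breakdown (-2.68, adjusted p = 0.00282), and PPARG, a nuclear receptor for fatty acids (-2.60, adjusted p = 0.00512), were higher in MP. SCD, which desaturates fatty acids (1.18, adjusted p = 0.00892), and CPT1B, which carries them into mitochondria (1.27, adjusted p = 0.0117), were higher in B. SCD had an adjusted p of 0.132 without the block and was 0.52 (adjusted p = 0.0662) from the series table, where CPT1B was 0.94. With B replicate 4 added CPT1B was 0.88 (adjusted p = 0.186), and it was 1.16 (adjusted p = 0.0513) without replicate 2 and 1.18 (adjusted p = 0.0588) without replicate 3. The related CPT1A differed by -0.95 (adjusted p = 0.216) and was -1.66 (adjusted p = 0.0269) without replicate 2. DGAT1, another member of the list, did not overlap and was not called at -0.89 (adjusted p = 0.0293), but was called higher in MP without replicate 1 (-1.08, adjusted p = 0.0474). ADORA3, an adenosine receptor, was higher in MP, at 1.12, -1.11 and 0.75 against -1.01, -2.12 and -2.64 in B, with a difference of -2.18 ± 0.48 (SE, n = 3 pairs, limma adjusted p = 0.0232), with overlap between the groups. It had an adjusted p of 0.0539 without the block and was -2.20 (adjusted p = 0.0769) without replicate 1 and -1.57 (adjusted p = 0.0631) without replicate 3. Among genes often used as references, GAPDH (-1.32, adjusted p = 0.0311) was higher in MP, and ACTB, HPRT1 and RPS26 were not called, at -0.16, -0.01 and 0.48, HPRT1 with a sign that changed with the scaling. GAPDH was -0.94 (adjusted p = 0.0917) without replicate 1 and -1.35 (adjusted p = 0.076) without replicate 2. It was not called with all 17 arrays, with adjusted p of 0.249 with slide as a block and 0.148 without, or with no filter on dim probes (adjusted p = 0.0667).

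Markers of other spleen cells were examined on the same arrays. Of the neutrophil granule list, LTF, the protein lactoferrin, was at -5.21, -3.42 and -3.48 in B and -2.75, -0.99 and -3.41 in MP and was not called (-1.65, adjusted p = 0.0676), but was called higher in MP without replicate 3 (-2.45, adjusted p = 0.0157), with all 17 arrays and no block (-2.13, adjusted p = 0.0257) and among genes well above background on all 6 arrays (adjusted p = 0.0426). The cathelicidin gene SC5 was at -4.03, -4.02 and -0.68 in B and -5.81, 0.04 and -1.99 in MP, high on B replicate 3 and MP replicate 2 (difference -0.32, adjusted p = 0.852), and without replicate 2 it was called higher in B (1.54, adjusted p = 0.0201). The summed signal of the 4 neutrophil genes on the array was 0.0809 to 1.89 on the 4 B arrays and 0.193 to 2.99 on the MP arrays, and the highest value of each group lay on these same arrays. GNLY, a protein of cytotoxic granules, was at -3.52, -1.92 and -4.36 and -6.43, -1.82 and -4.75 and was not called (1.07, adjusted p = 0.235). HBB, the beta chain of haemoglobin, was well above background only on B replicate 2 of the 7 arrays. The stromal genes DCN and CAV1 were not well above background on any of them, BGN was not called (0.10, adjusted p = 0.709), and no plasma cell marker had a symbol. The part of these cells in the differences was not tested.

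For 15 called genes with a symbol named here, the lower group was well above background on only 1 or 2 of its 3 arrays, so that their differences rest in part on signal below the limit. With such arrays at the limit, the differences of CXCL8, ITGAM, INHBA and CD247 kept their values, while SLC2A5 was at 2.82, IL2RA at 1.49, DIAP3 at 1.86, LRP6 at -4.83, CSF1R at -4.51, IL15 at -1.42, BMPR2 at -1.77 and SCD at 0.72. Genes detected in 1 group only have a lower bound for their difference and no fold change. On all 3 B arrays and no MP array, 315 genes (3.11%) were well above background, against 55 genes (0.542%) on all 3 MP arrays and no B array. The lowest signal that counted as well above background lay higher on MP replicates 1 and 2 (-4.24 and -4.79) than on the other 4 arrays (-6.02 to -5.49), and the part of this limit in the imbalance was not tested. Among genes with a symbol, GH, MLN, PRKAA2, SLAMF1, SLC12A4 and STRA8 were called and detected in B only, and IL1A, SELP and SERPINA1 in MP only.

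B replicate 4, which did not enter the paired fit behind the calls, was set beside the MP arrays. For 2957 of the 3130 called genes (94.5%) it lay on the called side of all 3 MP arrays, and for 11 on the opposite side of all 3, whereas among all genes it lay on the side of the difference for 66.4%. Among the called genes with a symbol it did so for 96 of 102. The exceptions were ADORA3, CPT1B, ISG15, ITGAL, MX2 and SLC2A5, for each of which it lay between the MP arrays. All of these arrays except B replicate 4 had entered the calls, so that the agreement is a check of 1 further array against the same MP arrays.

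Probes without a symbol were also called with large differences. Of 460 genes called with a difference of at least 4, 210 were higher in B and 250 higher in MP. Probes A_70_P062061 (8.84, adjusted p = 0.00567) and A_70_P065261 (8.70, adjusted p = 0.00318) were highest in B, and probes BL_OCA_R000069 (-9.24, adjusted p = 0.00208) and A_70_P027486 (-8.99, adjusted p = 0.00146) highest in MP. All but A_70_P062061 were well above background on only 1 or 2 of 3 arrays of the lower group, and with the other arrays at the background limit A_70_P065261 was at 7.44, BL_OCA_R000069 at -8.54 and A_70_P027486 at -8.36. In each case the sign was the same in all 3 pairs and on B replicate 4.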

How the data were processed

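RNA of sorted sheep cells was labelled with Cy3 and hybridised to a custom ovine 1-colour Agilent array with 15744 spots, of which 536 were controls. The intensity values deposited by the authors are Agilent Feature Extraction processed signals, already background-subtracted. The authors also deposited a series table of log2 values, used as an alternative. Here log2 of the processed signal minus the 75th percentile of the non-control spots of its array was taken. Spots marked as outliers (273) were left out, spots of a probe were averaged, and the probe with the highest sum over all arrays represented a gene. A gene was tested if, in 1 group or both, more than 50% of the spots of its probe exceeded the background limit of the scanner software on each of the 3 arrays, which kept 10139 genes. Below-background groups give a bound, computed from the lowest signal well above background on each array. No spot was saturated, and the number of arrays limits the precision.

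The 6 arrays were fitted with limma 3.58.1 in R 4.3.3 with the slide as a block, p-values were adjusted over all genes by Benjamini-Hochberg, and the fit was tested on simulated data. Slides come from the file headers. Deviations from the group means correlated at 0.253 to 0.556 between B and MP of one number. These arrays share a slide, so that the correlation cannot tell a slide effect from samples of the same animals. Alternatives left out the block, added arrays, changed scaling, background correction, filter, probe choice, thresholds and variance moderation, or left out a replicate. Of the symbols, 135 come from the gene names in the files and 299 from accessions looked up in a reference list of genes. Only 441 probes (2.93%) carry a symbol. Named genes were those with a symbol and the largest called differences, together with the tested members of the gene lists and 2 unnamed probes in each direction. The members and the lists were chosen with earlier results of these data known. Some results for the genes often used as references are not reported here.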

Additional observations from a re-analysis of the deposited data

Results flagged for a closer look

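For 5 of 102 genes, 1 of the 4 B arrays lay far from the others by Dixon's criterion, the gap to the nearest array divided by the range of the group, a number that chance alone gives at about 1 in 20 genes. MLN was at -1.71 on B replicate 4 and at -0.91, -0.88 and -0.99 on replicates 1 to 3, a ratio of 0.860. CAPN3 was high on B replicate 2, at 3.47, with a ratio of 0.839. CXCL1 was high on B replicate 1, at 8.29 (ratio 0.865), and IFNAR1 on B replicate 2, at 5.10 (ratio 0.845). SC5, the cathelicidin gene, was high on B replicate 3, at -0.68, with the others at -4.31 to -4.02 (ratio 0.919), and of the other 3 neutrophil granule genes BAC5 and CATHL3 were also highest on that B array, at 0.02 and -2.57, whereas LTF was highest on B replicate 2, at -3.42.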

How the results depend on the processing

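CR2, CD14, PTGS2 and ACVRL1 stayed called under every alternative that tested them, at 5.92 to 9.63, -7.87 to -6.13, -6.16 to -4.48 and -5.21 to -3.57. Of 73 called genes named here, which include the probes without a symbol and both PTGS2 and PGHS2, 49 were called in all alternative fits that tested them. None changed direction. The main fit called more genes higher in B than in MP, and under 4 settings this turned around. The counts higher in B and in MP were 857 and 1035 with normexp background correction, and 959 and 1177 where all 6 arrays had to be above background. They were 1444 and 1491 with no filter on dim probes, and 736 and 770 with a difference of at least 2. Without the replicate block, 1403 genes were called higher in B and 1243 in MP, and 2633 of the 3130 calls remained. Leaving out a replicate gave 1373 to 1465 and 1205 to 1321. Normexp moved the median difference of all genes by -0.12, and SLC2A5, BMP6, SLC12A4, GH, IL2RA, DIAP3, IL15, BMPR2, INHBA, GDF9, SELP, ITGAL, SCD and CPT1B were not called with it, and the cause was not tested.

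Several uncalled differences changed sign. BMP7 was -0.0723 with all 17 arrays and no block and the same with B replicate 4 added, -0.0799 with quantile normalization, -0.0976 with normexp and -0.139 from the series table. BMPR1B was -0.0371, -0.0758 and -0.0192 under the last 3 settings in that order, and HPRT1 0.164, 0.0111 and 0.116. CXCL1 was 0.0193 with quantile normalization and 0.00632 from the series table, and IFNAR1 0.202 under both. ABCG2 was -0.0817 with quantile normalization and -0.132 with normexp, and BGN -0.114 with normexp. Leaving out each replicate gave -0.0852 to 0.0365 for CXCL1, -0.0811 to 0.470 for BMPR1B, -0.294 to 0.210 for BMP7, -0.325 to 0.103 for IFNAR1, -0.146 to 0.0743 for PLIN2, -0.156 to 0.558 for ABCG2, -1.38 to 1.54 for SC5 and -0.300 to 0.156 for HPRT1. The highest value of SC5 came without replicate 2 (adjusted p = 0.0201).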

Other observations

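A further 8 genes with a symbol were chosen after their values were seen. AHR, a receptor for small aromatic compounds, was at -0.75, -1.12 and -0.46 on B replicates 1 to 3 and at 1.64, 1.84 and 1.96 on the MP arrays (-2.59, limma adjusted p = 0.00217). RARA, a retinoic acid receptor, was at 1.03, 0.97 and -0.07 in B and 2.91, 3.16 and 2.49 in MP (-2.22, adjusted p = 0.0029). ID2, an inhibitor of helix-loop-helix factors, was at 1.09, 0.79 and 1.06 in B and 4.26, 4.53 and 3.79 in MP (-3.22, adjusted p = 0.0021), and ZFP36, which speeds the decay of cytokine mRNA, differed by -2.72 (adjusted p = 0.00267). DNMT1, which maintains DNA methylation after replication, was at 3.1, 3.83 and 5.08 in B and 1.48, 2.46 and 2.46 in MP (1.87, adjusted p = 0.00973).

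PGD, of the pentose phosphate pathway, was at 0.20, 0.88 and 1.01 in B and 2.91, 3.49 and 4.0 in MP (-2.77, adjusted p = 0.00173), IDH1 differed by -2.26 (adjusted p = 0.00298) and PYGL, the liver form of glycogen phosphorylase, by -1.62 (adjusted p = 0.00921), opposite in direction to its muscle counterpart PYGM.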
